A study of Mus musculus with 6 samples.

Results

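The genes described here are the secreted ligands, cell surface receptors and secreted antagonists of the Wnt pathway, followed in mouse liver between youth and adulthood. They were taken by name from the protein-coding genes of the deposited table: every Wnt, Frizzled (Fzd), R-spondin (Rspo), Dickkopf (Dkk) and secreted Frizzled-related (Sfrp) gene with a number in its symbol, together with Lgr4, Lrp5, Lrp6, Znrf3 and Wif1. This gave 46 genes of 32597 in all. The animals were wild-type male mice of the inbred strain C57BL/6, with no treatment named, kept under specific-pathogen-free conditions. The young group is labelled as 3 weeks in the sample names, as up to 4 weeks in the field for age and as 1 month in the title of the study, and the adult group is labelled as 6 months. The data comprise 3 libraries of whole-liver RNA per age, and each library was a pool of 3 mice, which makes 9 mice per age. The question the design addresses is which liver transcripts differ between these ages.

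Wnt ligands are lipid-modified secreted proteins that bind a Frizzled receptor together with Lrp5 or Lrp6. Binding blocks the destruction complex that otherwise breaks down beta-catenin, and beta-catenin then acts with TCF/LEF factors on its target genes. The membrane ubiquitin ligases Znrf3 and Rnf43 remove Frizzled proteins from the cell surface, and R-spondins, bound to Lgr4, Lgr5 or Lgr6, counter these ligases. In mouse liver the endothelial cells around the central vein release Wnt2, Wnt9b and Rspo3, and the hepatocytes next to them keep up a set of beta-catenin targets that includes glutamine synthetase, Glul.

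The unit throughout is FPKM, sequenced fragments scaled to transcript length and library size, with 1 value per gene and age that the authors had already combined over the 3 libraries. No value per library was used, so no standard deviation can be given, the depth behind a value is unknown, and the order of 2 neighbouring levels carries no test. The words rose and fell are kept for genes with a q-value, a p-value adjusted for the number of genes, under 0.05 in the authors' deposited table. The deposited table listed 16290 genes as tested. The summed FPKM was 762084 in young and 765940 in adult liver, and the median log2 ratio of the 10828 genes at 1 FPKM or more at both ages was 0.0018. The albumin gene Alb, the most typical hepatocyte transcript, was listed at 0 at both ages with the status LOWDATA. A listed 0 in this table therefore need not mean that a transcript was missing. Those of the 46 genes with a listed 0 carried another status, NOTEST, for not tested. How their values of 0 arose is not known.

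Of the 46 genes, 22 were tested by the authors and 24 were not. Among the 22, only the receptor gene Fzd7 was called, and it was higher in adult liver. This is 4.55% of those tested, while 6.82% of every tested gene was called, 3.74% as higher and 3.08% as lower in adults. None of the 22 was called lower, and at the unadjusted 0.05 level in the authors' deposited table, 3 were higher and 3 lower, together 27.3% of the 22, against 15.9% of every tested gene in either direction. A q-value under 0.1 in the authors' deposited table was reached by 4 genes, 2 in each direction, or 18.2% of the 22, against 8.56% of every tested gene. The share called at q under 0.05 was near the background and the shares at both looser thresholds were above it, and these counts of 1 to 6 genes were not tested against the background. The untested genes reached at most 0.161 FPKM, the young value of Wnt7a; 5 of them were listed at 0 at both ages and 7 at 1 age only.

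At both ages the most abundant transcript per unit of length was Lgr4, an R-spondin receptor, at 15.8 FPKM in young mice and 14.7 in adults. It was followed by the co-receptors Lrp5 and Lrp6 and then by Fzd7, Fzd4, Fzd8 and Rspo3, in the same order at both ages. The highest Wnt gene came next in young liver, Wnt5b at 1.80 FPKM, just under the 1.99 of Rspo3. Of the tested genes, 13 reached 1 FPKM, and each of these did so at both ages, so none entered through 1 age alone. The lowest of these was Fzd5, at 1.18 FPKM in young mice and 1.31 in adults. Just under the limit was Rspo1, at 0.951 and 0.543 FPKM. The other 9 tested genes lay between 0.0233 and 0.951 FPKM.

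**Figure D1:**
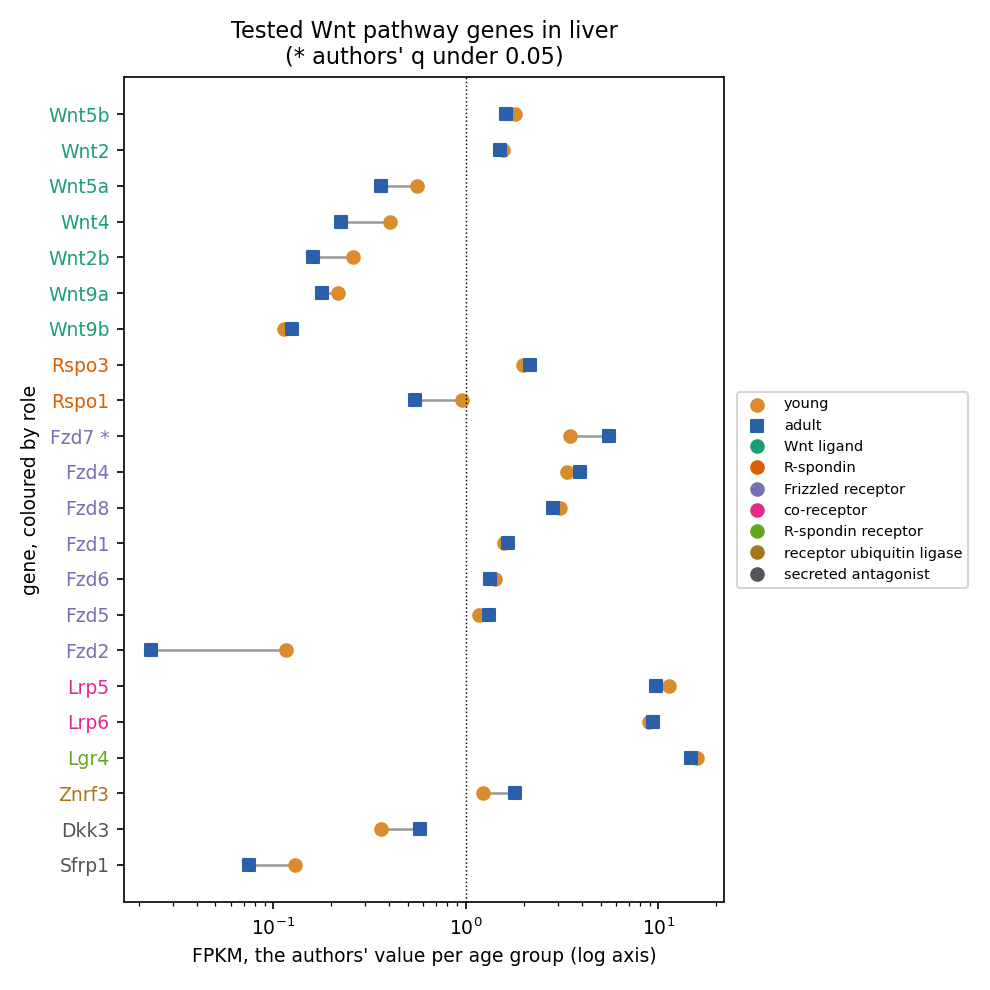
FPKM of the 22 tested genes in young liver (orange circles) and adult liver (blue squares) on a log axis, 1 authors' value per age, with gene names coloured by role and a dotted line at 1 FPKM. Lgr4, Lrp5 and Lrp6 lie farthest to the right, most Wnt genes lie left of the line, and Fzd7, which went from 3.49 to 5.53 FPKM, carries the asterisk of a q-value under 0.05.

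Frizzled receptors, the seven-pass membrane proteins that bind Wnt, showed the called rise. Fzd7 stood at 3.49 FPKM in young mice and 5.53 in adults, 1.59-fold higher in adults, with a log2((adult FPKM + 1)/(young FPKM + 1)) of 0.54. Its p-value in the authors' deposited table was 5e-05, the smallest value that table holds and one shared by 554 genes, and its q-value was 0.00189. Fzd7 lies on chromosome 1 at 59482424 to 59486955 on the plus strand of GRCm38 and consists of 1 exon in GENCODE M21. Of the 4 tested genes whose higher FPKM lay from 5 to 20, only Fzd7 was called, and 6.25% of all tested genes in that range were. Fzd7 reached 5 FPKM only in adults and so entered the range through its adult value. The count therefore gives no further support for its rise.

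The other Frizzled genes above 1 FPKM differed less between the ages. Fzd4, a receptor that also binds norrin, was at 3.36 FPKM in young mice and 3.92 in adults, and Fzd8 was at 3.06 and 2.82. Fzd1 was at 1.57 and 1.65 FPKM, Fzd5 at 1.18 and 1.31, and Fzd6 at 1.42 and 1.33. Fzd4, Fzd1 and Fzd5 were thus higher in adults and Fzd8 and Fzd6 lower, each by less than 1.2-fold, and their q-values in the authors' deposited table lay between 0.758 and 0.997. Fzd2 was near the bottom of the tested range, at 0.116 FPKM in young mice and 0.0233 in adults, 4.99-fold lower in adults. It missed the threshold, with q = 0.0558 in the authors' deposited table. Fzd3, Fzd9 and Fzd10 were not tested and stayed at or below 0.0474 FPKM.

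Summed over the 10 Frizzled genes, the level was 14.2 FPKM in young mice and 16.7 in adults. Without Fzd7 the sums were 10.8 and 11.1 FPKM, so Fzd7 accounted for most of the difference. Its share of the Frizzled sum was 24.5% in young and 33.2% in adult liver. The share of Fzd4 was 23.6% and 23.5%, and that of Fzd8 was 21.5% and 16.9%. In young liver Fzd7, Fzd4 and Fzd8 thus had similar levels, while in adult liver Fzd7 stood above both; whether Fzd7 differed from Fzd4 in its age difference was not tested.

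**Figure D2:**
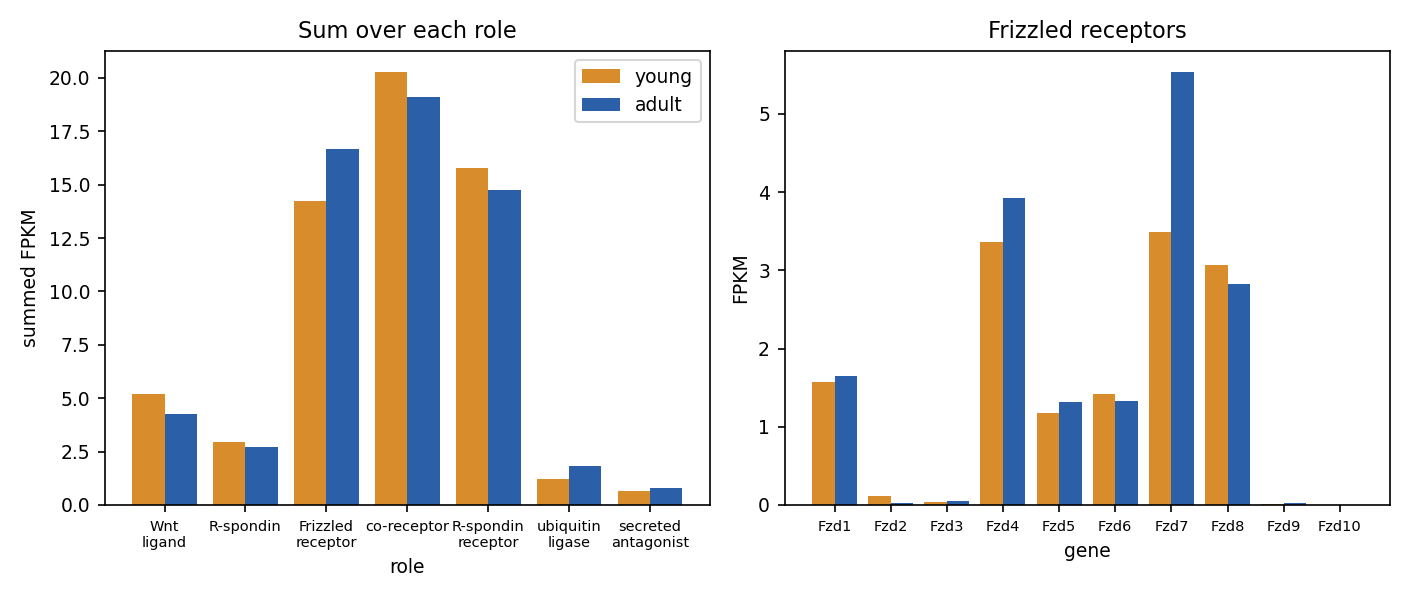
Left, FPKM summed over the genes of each role in young (orange) and adult (blue) liver; right, FPKM of each Frizzled gene, with 1 authors' value per age and no error bars because no values per library were used. The Frizzled sum goes from 14.2 to 16.7 FPKM and the Wnt sum from 5.18 to 4.24, and Fzd7 has the tallest adult bar of its family.

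In the Frizzled family, 6 of the 10 members consist of 1 exon in GENCODE M21, namely Fzd1, Fzd2, Fzd7, Fzd8, Fzd9 and Fzd10. No other gene of the 46 has a single exon. Both the called gene and 3 genes that were untested or at the bottom of the tested range belong to this group. A relation between gene structure and level was not tested. The promoter of Fzd7 is shown because Fzd7 was the called gene, with that of Fzd4 as the family member nearest to it in level and that of Wnt2 as a ligand of the central vein endothelium. Each run covers 250 bases before and 50 bases after the RefSeq start on GRCm38.p6, written 5′ to 3′ on the gene's own strand. Capitals mark matches to CTTTG on either strand, the core of the TCF/LEF motif. The positions are chr1:59481897-59482196 on the plus strand for Fzd7, chr7:89404116-89404415 on the plus strand for Fzd4 and chr6:18030396-18030695 on the minus strand for Wnt2.
Fzd7: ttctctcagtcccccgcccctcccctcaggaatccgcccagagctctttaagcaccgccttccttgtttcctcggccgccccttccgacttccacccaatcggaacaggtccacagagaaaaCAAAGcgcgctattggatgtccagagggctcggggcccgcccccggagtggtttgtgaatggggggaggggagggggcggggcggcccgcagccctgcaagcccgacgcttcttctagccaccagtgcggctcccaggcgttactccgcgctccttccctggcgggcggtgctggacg
Fzd4: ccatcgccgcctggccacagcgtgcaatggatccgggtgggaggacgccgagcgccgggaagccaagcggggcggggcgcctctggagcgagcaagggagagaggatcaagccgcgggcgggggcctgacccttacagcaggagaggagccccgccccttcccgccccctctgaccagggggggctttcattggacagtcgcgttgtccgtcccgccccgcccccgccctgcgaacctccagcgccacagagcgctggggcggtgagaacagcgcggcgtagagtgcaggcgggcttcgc
Wnt2: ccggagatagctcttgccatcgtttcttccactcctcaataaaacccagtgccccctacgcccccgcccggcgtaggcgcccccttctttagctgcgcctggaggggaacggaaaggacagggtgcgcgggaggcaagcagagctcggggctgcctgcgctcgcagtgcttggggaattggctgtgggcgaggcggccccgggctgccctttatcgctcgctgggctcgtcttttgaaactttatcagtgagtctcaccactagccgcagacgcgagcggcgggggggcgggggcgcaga
Fzd7 holds 1 match, which begins 128 bases before the RefSeq start, and the windows of Fzd4 and Wnt2 hold none. The core occurs in 53.9% of the 32851 promoters of 300 bases in the RefSeq table and in 14 of the 32 windows found for 29 of the 46 genes. The longer form CTTTGA, which contains the core, occurs in 16.0% of all windows and in 4 of these 32, and not in the 3 shown. The windows of Fzd7, Fzd4 and Wnt2 hold 66.7%, 72.7% and 65.7% G and C, against a median of 52.7% over all windows. The RefSeq start of Fzd7 lies 277 bases before the gene start of the deposited table, and that of Wnt2 lies 140 bases inside the deposited gene.

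Wnt ligands were few and low, and none was called. Of the 19 Wnt genes, 7 were tested, and by value 6 of these were lower in adult liver and 1 was higher. At an unadjusted p under 0.05 in the authors' deposited table, 1 was lower and none higher, beside 7.43% and 8.47% of every tested gene. With 6.82% of every tested gene called, the counts called and at this p were near the background. The summed level of the 19 Wnt genes was 5.18 FPKM in young mice and 4.24 in adults, of which Wnt2 and Wnt5b together made up 65.0% and 73.3%. Wnt2, which signals through beta-catenin from sinusoidal and central vein endothelium, was at 1.56 FPKM in young mice and 1.497 in adults. Wnt9b, the other ligand of the central vein endothelium, was at 0.114 and 0.125 FPKM. The q-value of both was 0.997 in the authors' deposited table. By value alone, the ages were within 1.2-fold of each other for these 2 ligands. Their q-values do not show that the levels were equal.

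Wnt5b, whose product is best known for signalling that does not need beta-catenin, was at 1.80 FPKM in young mice and 1.61 in adults. The span of its gene overlaps that of the protein-coding gene Fbxl14 on the opposite strand. Whether their exons overlap was not examined, and whether reads were counted by strand is unknown. How far the Wnt5b level includes reads of Fbxl14 is therefore unknown. Wnt5a, a relative of Wnt5b, was at 0.558 and 0.363 FPKM, q = 0.742 in the authors' deposited table. Wnt4, a ligand needed for kidney and female reproductive tract development, was at 0.403 FPKM in young mice and 0.226 in adults, 1.79-fold lower in adults. It missed the threshold, with q = 0.0820 in the authors' deposited table. Wnt2b was at 0.258 and 0.161 FPKM and Wnt9a at 0.218 and 0.180, with q-values of 0.399 and 0.920 in the authors' deposited table. Of the 5 tested ligands under 1 FPKM, Wnt5a, Wnt4, Wnt2b and Wnt9a had lower adult values and Wnt9b a higher one, and none of these differences passed the test.

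The remaining 12 Wnt genes were not tested. Wnt7a, a ligand of the developing nervous and reproductive systems, was at 0.161 FPKM in young mice and 0.00649 in adults, the highest level among the untested genes. Wnt7b was at 0.0449 and 0.0106 FPKM and Wnt11 at 0.0445 and 0.0384. Wnt1, Wnt8a and Wnt8b were listed at 0 at both ages. Wnt3, Wnt3a, Wnt10a, Wnt10b and Wnt16 were listed at 0 at 1 age and at most at 0.00690 FPKM at the other, and Wnt6 was at 0.00389 and 0.0125. No direction can be read for these genes, since the deposited table gives no test for them.

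Some Wnt genes lie next to each other in the genome, and 8 of the 19 form 4 neighbouring pairs less than 100 kb apart. On chromosome 11 Wnt9b (103727364 to 103749821) lies 24.3 kb from Wnt3 (103774150 to 103817957), and Wnt3a (59248033 to 59290752) lies 16.2 kb from Wnt9a (59306928 to 59333552). In each of these pairs the genes run away from each other, and only the Wnt9 gene was tested, while its neighbour stayed at or below 0.00208 FPKM. On chromosome 15 Wnt10b and Wnt1 are 11.7 kb apart and on chromosome 1 Wnt6 and Wnt10a are 6.19 kb apart, and all 4 of these genes were at or below 0.0125 FPKM. At both chromosome 11 sites a ligand with a low level thus lay beside a neighbour at or almost at 0.

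R-spondins, the secreted enhancers of Wnt signalling, were represented mainly by Rspo3. Rspo3 was at 1.99 FPKM in young mice and 2.15 in adults, q = 0.984 in the authors' deposited table. Rspo1 was at 0.951 and 0.543 FPKM, 1.75-fold lower in adults, q = 0.741 in the authors' deposited table. Rspo2 and Rspo4 were not tested and were listed at 0 at both ages. None of the R-spondins was called, and none reached an unadjusted p under 0.05 in the authors' deposited table. Rspo1, Rspo3, Wnt5a, Fzd5 and Fzd6 overlap models that are not protein-coding on the opposite strand in GENCODE M21, and the split of reads between these partners is likewise unknown. Of the tested genes, Rspo3 and Wnt2b also overlap another gene model on their own strand, and how reads were split there is unknown too.

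The R-spondin receptor Lgr4 was at 15.8 FPKM in young mice and 14.7 in adults, q = 0.961 in the authors' deposited table. Its paralogue Lgr5, which is no member of the set and marks pericentral hepatocytes, rose from 1.13 to 2.94 FPKM, q = 0.00189 in the authors' deposited table. Of the sum of the Lgr4 and Lgr5 levels, Lgr5 made up 6.69% in young and 16.6% in adult liver, while the sum itself was 16.9 and 17.7 FPKM. Lgr4 therefore remained the larger of the pair at both ages. The ubiquitin ligase gene Znrf3, on chromosome 11 at 5276324 to 5444847, was at 1.22 FPKM in young mice and 1.80 in adults, 1.47-fold higher in adults. It missed the threshold, with q = 0.0772 in the authors' deposited table and an unadjusted p of 0.00485. The paralogous ligase Rnf43, also outside the set, rose from 3.63 to 6.80 FPKM, q = 0.0379 in the authors' deposited table. Znrf3 made up 25.2% of the sum of both ligases in young and 21.0% in adult liver. Whether the age differences of these paralogues differ from each other was not tested.

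The co-receptors Lrp5 and Lrp6, single-pass proteins of the LDL receptor family that bind Wnt beside a Frizzled, differed little. Lrp5 was at 11.3 FPKM in young mice and 9.70 in adults, and Lrp6 was at 8.98 and 9.42. Their q-values in the authors' deposited table were 0.729 and 0.990. Lrp5 stood above Lrp6 at both ages, and their sum was 20.3 and 19.1 FPKM.

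Secreted antagonists had low levels, and none was called. Dickkopf proteins bind Lrp5 and Lrp6, and the secreted Frizzled-related proteins and Wif1 bind Wnt ligands. The 9 antagonist genes summed to 0.643 FPKM in young mice and 0.799 in adults, and most of this was Dkk3. Dkk3, a divergent Dickkopf member that is not a typical Lrp6 inhibitor, was at 0.361 and 0.580 FPKM, 1.61-fold higher in adults. Its unadjusted p in the authors' deposited table was 0.0217 and its q-value 0.225. Sfrp1 was at 0.130 and 0.0752 FPKM, 1.73-fold lower in adults, with an unadjusted p of 0.04495 and q = 0.354 in the authors' deposited table. The other 7 were not tested: Dkk4 reached 0.0609 FPKM in adult liver, Sfrp4 0.0489 and Wif1 0.0444 in young liver, and Dkk1, Dkk2, Sfrp2 and Sfrp5 stayed at or below 0.0315.

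Among the 13 genes of at least 1 FPKM, the median log2((adult FPKM + 1)/(young FPKM + 1)) was 0.045, with 7 values higher and 6 lower in adults. Over all 11741 tested genes of at least 1 FPKM the median was 0.0033 and 50.5% were higher in adults. Of the 13 genes, 11 differed by less than 1.2-fold, the exceptions being Fzd7 and Znrf3, and 62.8% of the 11741 genes did so. The size of a difference that the authors' test called depended on the level. The smallest fold among called genes was 1.72 where the higher FPKM was under 1, 1.42 from 1 to 5 FPKM and 1.39 from 5 to 20 FPKM, and the median folds of called genes were 3.13, 2.34 and 1.90. In the first range none of 9 tested members was called, against 5.14% of all tested genes there, and in the second none of 9, against 7.51%. The 1.47-fold difference of Znrf3 was thus just above the smallest that was called at its level, and the 1.79-fold difference of Wnt4 likewise. Fzd2 at 4.99-fold, Rspo1 at 1.75-fold and Sfrp1 at 1.73-fold also exceeded the smallest called fold under 1 FPKM and were not called. Fold and range of level alone thus did not decide a call. A q-value above the threshold does not show that these genes were equal at both ages.

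**Figure D3:**
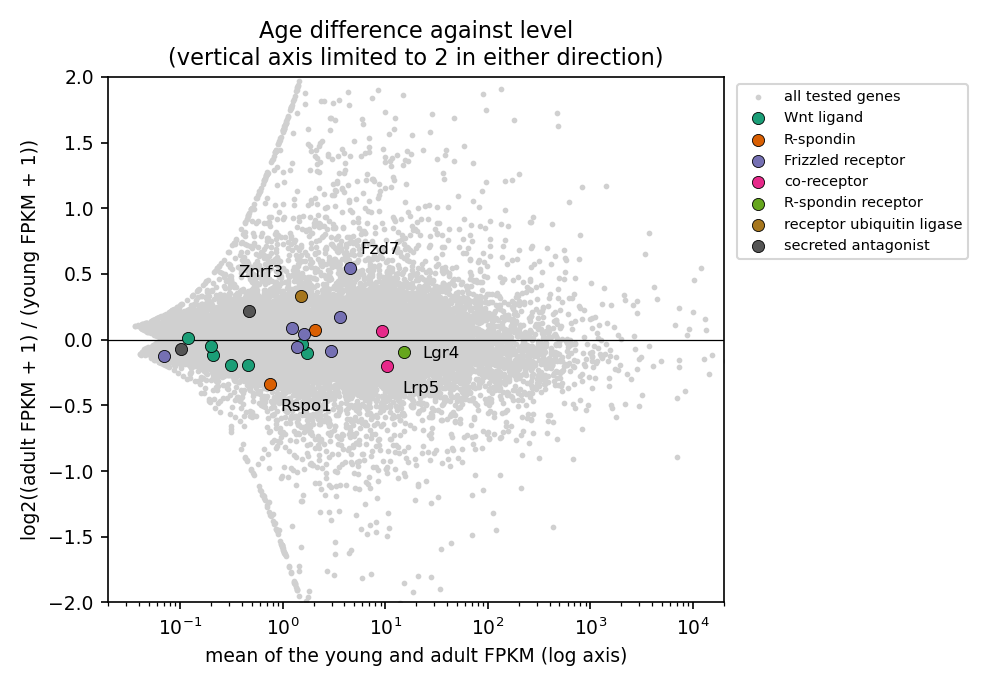
Age difference, as log2((adult FPKM + 1)/(young FPKM + 1)), against the mean FPKM of both ages on a log axis, for all tested genes in grey and the 22 tested Wnt genes coloured by role; genes beyond 2 in either direction are not drawn. Fzd7 at 0.54 is the uppermost coloured point, Znrf3 at 0.33 is next, and Rspo1 at -0.34 is the lowest.

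The rest of the pathway was described with lists of textbook genes. Over 74 tested genes of these lists, each counted once, 6 rose and 1 fell, which is 9.46% called against 6.82% of every tested gene and so near the background. The carriers of the signal inside the cell did not pass the test: of 21 tested genes of the destruction complex and cytoplasm none was called, and none had an unadjusted p under 0.05 in the authors' deposited table. Beta-catenin, Ctnnb1, was at 94.8 FPKM in young mice and 88.6 in adults, and the kinase gene Csnk1a1 was at 42.2 and 39.8. Of 13 nuclear genes, 1 fell: Pygo1, a beta-catenin co-activator, fell from 0.123 to 0.0335 FPKM, q = 0.00350 in the authors' deposited table. The secretion genes Wls, a Wnt carrier protein, at 2.44 and 2.36 FPKM, and Porcn, the acyltransferase that adds the lipid to Wnt, at 1.41 and 1.13 FPKM, were not called, and neither had an unadjusted p under 0.05 in the authors' deposited table. Over list genes of at least 1 FPKM, the median log2((adult FPKM + 1)/(young FPKM + 1)) was -0.0036 for the destruction complex and cytoplasm (18 genes) and 0.079 for the nuclear genes (10 genes), beside 0.0033 for all 11741 tested genes above the same limit.

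All 6 rises were in target genes of the pathway. Of 10 tested feedback targets, 2 rose and none fell, namely Lgr5 and Rnf43, both of which also belong to the list of other surface proteins, where 2 of 12 tested genes rose. At an unadjusted p under 0.05 in the authors' deposited table, 3 feedback targets were higher and none lower. Of every tested gene, 8.47% were higher and 7.43% lower at that p. Axin2, the scaffold protein often used as a readout of beta-catenin, was at 1.34 and 1.88 FPKM, q = 0.653 in the authors' deposited table; it was named after its values were seen. Of 17 tested pericentral targets, 6 rose and none fell, while all 17 had a higher adult value. At an unadjusted p under 0.05 in the authors' deposited table, 12 of the 17 were higher and none lower, beside the same 8.47% and 7.43%. Oat, an ornithine aminotransferase, rose from 236 to 729 FPKM, the cytochrome Cyp2a5 from 118 to 283 and the glutamate transporter Slc1a2 from 22.2 to 53.0, beside Lgr5 and Rnf43. Glul, named after its values were seen, rose from 216 to 317 FPKM, q = 0.0452 in the authors' deposited table. These 6 genes are 35.3% of the pericentral genes tested, beside the 6.82% of every tested gene, and the list was chosen with earlier results of these data known. Its median log2((adult FPKM + 1)/(young FPKM + 1)) was 0.47, beside 0.045 for the 13 ligand, receptor and ligase genes of at least 1 FPKM. A difference between these groups was not tested.

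**Figure D4:**
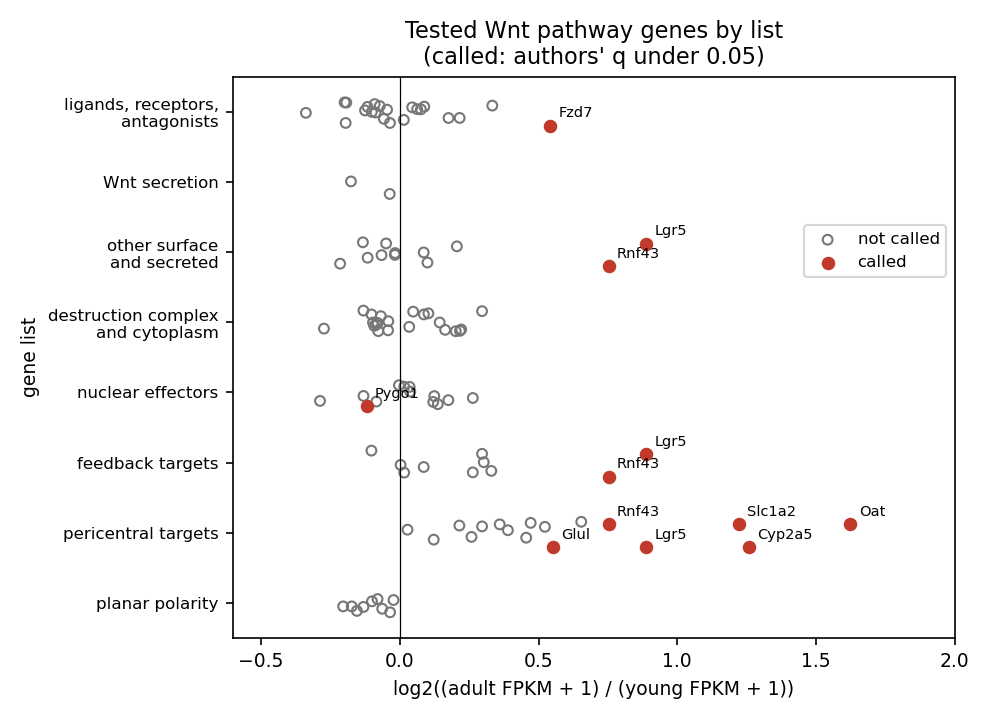
Age difference, as log2((adult FPKM + 1)/(young FPKM + 1)), of the tested genes of each list, with called genes (q-value under 0.05) as filled red points with names and the others as open circles; vertical scatter within a list has no meaning. The ligands, receptors and antagonists have 1 called gene, Fzd7, and the pericentral targets have 6, from Glul at 0.55 to Oat at 1.62.

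Several lists of cell type markers for whole liver held called genes, to be read beside the 3.74% of every tested gene called higher and the 3.08% called lower, and fewer cells of a type cannot be told apart from less RNA per cell. At an unadjusted p under 0.05 in the authors' deposited table, 8.47% of every tested gene were higher and 7.43% lower. Of 15 markers of sinusoidal and vein endothelium, a known source of Wnt2, Wnt9b and Rspo3, 2 fell and none rose, and their summed level was 150.9 FPKM in young mice and 125 in adults; at an unadjusted p under 0.05 in the authors' deposited table none was higher and 3 were lower. Of 15 stellate cell and fibroblast markers, 3 fell and none rose, with summed levels of 269 and 220 FPKM, and at that p 8 were lower and none higher. Of 7 mesothelial markers, 5 fell and none rose, with summed levels of 15.5 and 4.91 FPKM, and at that p 6 were lower and none higher. Of 7 cholangiocyte markers 3 fell and none rose, with 51.2 and 44.0 FPKM, and at that p 3 were lower and none higher. Most of the cholangiocyte sum was Spp1, which was not called, at 45.1 FPKM in young mice and 41.3 in adults. For T and NK cells, 6 of 7 markers rose, none falling, with 3.20 and 15.1 FPKM, and of 7 tested Kupffer cell and macrophage markers 2 rose and none fell, with 274 and 309. At that p, 6 T and NK cell markers were higher and none lower, and 3 Kupffer cell and macrophage markers were higher and 1 lower. None of 7 tested hepatocyte markers was called, although 6 of the 7 values were lower in adults and the summed level was 22547 FPKM in young mice and 17905 in adults; at an unadjusted p under 0.05 in the authors' deposited table, 1 was lower. Apart from Alb, no gene of these lists was listed at 0. The part of these marker differences in the values of Fzd7 and of the lower adult levels of Wnt4, Wnt5a, Wnt2b, Rspo1 and Fzd2 was not tested.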

How the data were processed

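Per the labels' protocols, each library held RNA pooled from 3 mice, prepared with an Illumina TruSeq kit and sequenced on an Illumina NextSeq. Per the submitters' processing notes, the tools were TopHat2 2.0.11, Cufflinks 2.2.1 and an unversioned Cuffdiff, with the build GRCm38, the annotation and normalization not given in the sources used here. Deposited by the authors were 1 FPKM value per gene and age, and a log2 fold with a score, p-value and q-value from their own test. The depth per library is unknown. No model was fitted here, because no value per library was used. Calls are the authors' q-values under 0.05 over all 16290 tested genes. How the spread between the pools entered the authors' test is unknown, and preparation of the pools on separate days is not stated.

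Folds were computed as log2((adult FPKM + 1)/(young FPKM + 1)) or as plain ratios (Python 3.11.15, pandas 2.3.3), and counting was tested on simulated data. Gene structure came from GENCODE M21, in which all 46 identifiers were found with overlapping spans, and promoters from RefSeq (GRCm38.p6). The genes, the 7 pathway lists and the 7 marker lists were chosen with earlier results of these data known. Genes at 1 FPKM or more, called genes, and genes with at least a 2-fold difference reaching 0.3 FPKM were to be named; up to 4 called genes were named per pathway list. Members under 1 FPKM were named after their values were seen. Alternatives changed the thresholds, the pseudocount, the minimum FPKM and the scaling.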

Additional observations from a re-analysis of the deposited data

How the results depend on the processing

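Fzd7 was the 1 gene of the set called at a q-value under 0.01 and with either minimum of 1 FPKM. At a q-value under 0.1 the count was 4 (Fzd7 and Znrf3 higher, Fzd2 and Wnt4 lower), and at an unadjusted p under 0.05 it was 6, with Dkk3 and Sfrp1 added; over all tested genes the count went from 1111 to 724 at a q-value under 0.01, to 1395 at a q-value under 0.1 and to 2589 at an unadjusted p under 0.05, all chosen after seeing the data. The median log2 fold of 0.045 was 0.068 with a pseudocount of 0.1 and 0.069 with 0.01. It turned negative, to -0.051, over all 22 tested genes with no minimum, and to -0.014 over the 4 genes of at least 5 FPKM at either age. Of these 4, Fzd7 reached that minimum only in adults. The calls in the pathway lists numbered from 5 to 9 at the stricter and looser q-value, against 7, and 6 without genes under 1 FPKM, an alternative also chosen after seeing the data, which drops Pygo1. No paired analysis was possible because the table holds 1 value per age and no library columns, and for the same reason no library could be left out.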

Other observations

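Planar cell polarity genes, which take Frizzled signals to the cytoskeleton without beta-catenin, were not called in any of 9 tested cases, and all 9 had a lower adult value. At an unadjusted p under 0.05 in the authors' deposited table, 1 was lower and none higher, beside 7.43% and 8.47% of every tested gene. With 6.82% of every tested gene called, both counts were near the background. Whether 9 lower values of 9 differ from the background was not tested. The formin Daam1 was at 9.18 FPKM in young mice and 8.75 in adults, and the membrane protein Vangl1 was at 2.80 and 2.42. The median log2((adult FPKM + 1)/(young FPKM + 1)) of the 3 genes of this list at 1 FPKM or more was -0.15. The atypical Wnt receptor Ryk stood at 14.0 and 15.1 FPKM, and Notum, which encodes an enzyme that removes the lipid from Wnt, was at 12.7 and 13.6. Both stood above every Frizzled gene at both ages, and both were chosen once their values had been seen.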
